A study of Mus musculus with 6 samples.

Results

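The endoplasmic reticulum (ER) folds secreted and membrane proteins, and cells adjust that capacity through the unfolded protein response and the integrated stress response. Across whole uteri, 35 genes of these responses were followed, chosen by gene symbol from the 21936 genes in each of the 6 deposited tables. They comprise 4 stress sensors and transducers, 14 ER chaperones and folding enzymes, 4 genes of ER-associated degradation, 3 transcription factor genes of the integrated stress response and 10 genes known as targets of ATF4. Symbols matched for all 35, and for Ddit3 a second gene ID was listed at 0 in every library and was not used. No member was listed at 0 in any library, and all 35 reached 1 FPKM (fragments scaled to gene length and library size) in at least 3 libraries, Chac1 only through the d/d libraries.

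The libraries came from Mettl3 d/d uteri (3 libraries) and Mettl3 f/f uteri (3 libraries), taken on gestational day 4 from females 6 to 8 weeks old that had been mated with fertile males, with the plug counted as day 1. Mettl3 encodes the catalytic subunit of the complex that writes N6-methyladenosine on RNA, f/f usually denotes a floxed allele and d/d its deleted form. Which Cre was used, which exons were removed and whether the libraries are from separate animals is not labelled, and a p-value here reflects only how much these 6 libraries vary. The comparison asks which of these stress-response genes differ between the genotypes around the time the uterus becomes receptive.

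The unfolded protein response has 3 sensors in the ER membrane. IRE1 splices the Xbp1 mRNA, ATF6 is cut to release a transcription factor, and PERK phosphorylates the initiation factor eIF2. XBP1 and ATF6 raise genes of ER chaperones and of the degradation machinery. Phosphorylated eIF2, which kinases outside the ER also produce, lowers general translation and favours translation of the Atf4 mRNA, and ATF4 raises genes of amino acid supply, redox balance and feedback. In the uterus, the epithelium and decidualising stroma secrete much protein, and ER chaperones are known there as part of the secretory programme. A gene-level value shows neither Xbp1 splicing nor ATF4 protein.

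The libraries held values above 0 for 15978 to 16359 genes, summed to 535043 to 625575 FPKM, and the smallest steps between values put the relative depths within 0.935 to 1.01 of f/f replicate 1; the absolute depth is unknown. Over the genes tested, d/d libraries correlated with each other at Spearman 0.8701 to 0.916 and f/f libraries at 0.978 to 0.989, and the median SD of a member on the log2 scale was 0.32 in d/d and 0.12 in f/f libraries. Mettl3 was at 42.9, 30.1 and 46.5 FPKM in d/d replicates 1, 2 and 3, against 30.3, 29.8 and 26.3 FPKM in the f/f libraries (log2 fold change 0.43, limma adjusted p = 0.202). This whole-gene value, which covers removed and kept exons alike and shares 933 exonic bases with Tox4 on the other strand, does not check the genotype labels. Stromal markers (8 genes, 0 called) summed to 1597 to 3945 FPKM in d/d and 2227 to 2654 FPKM in f/f libraries. Marker lists of other cell types also differed, some in single d/d libraries and some in all 3. Summed luminal and shared epithelial markers (10 genes, 3 higher) ran from 894 to 3512 FPKM in d/d and from 817 to 998 FPKM in f/f libraries, with d/d replicate 2 inside the f/f range and d/d replicate 3 the highest. Summed leukocyte and macrophage markers (6 genes, 1 higher) ran from 274 to 4300.2 FPKM in d/d and from 191 to 299.7 FPKM in f/f libraries, with d/d replicate 2 the highest. Gland and endothelial sums were below f/f in every d/d library. Gland markers, of which 2 of the 4 tested were lower, summed to 2.46 to 67.5 FPKM in d/d and 82.8 to 113 FPKM in f/f libraries. Cxcl15 went both ways, at 49.1, 7.87 and 0 FPKM in d/d replicates 1, 2 and 3. Its f/f values were 15.5, 20.2 and 34.6 FPKM. Prss28 was listed at 0 in all 3 d/d and 2 f/f libraries. Endothelial markers, of which 1 of 6 was lower, summed to 108 to 196 FPKM in d/d and 213 to 329.9 FPKM in f/f libraries. Neutrophil markers (3 of 6 tested, 0 called) summed to 1.75 to 1081 FPKM in d/d and 3.097 to 9.49 FPKM in f/f libraries, and smooth muscle markers (7 genes, 1 lower) to 1121 to 4758 FPKM in d/d and 2493 to 5967 FPKM in f/f libraries. Beside the calls in these lists, 3.49% of all genes tested were called higher and 3.81% lower. Fewer cells of a type and less RNA per cell cannot be told apart in whole tissue.

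Of the 35 members, 3 were higher and 0 lower in d/d uteri at a limma adjusted p under 0.05 (Benjamini-Hochberg over 12979 genes, log2(FPKM + 1) scale). These were Hspa5 and Pdia4, which encode ER chaperones, and Chac1, an ATF4 target. They make up 8.57% of the members, against 3.49% of all genes tested called higher and 3.81% called lower, 7.3% in all. Chac1 counts in this share and in the higher shares below, although it entered the test only through the d/d libraries, where it is high. At an unadjusted p under 0.05, 12 members had a positive and 4 a negative log2 fold change, against 13.1% and 13.6% of all genes tested, or 26.7% in either direction. In 13 members every d/d library lay above every f/f library, and in 4 every d/d library lay below, 37.1% and 11.4% of the members, against 18.1% and 17.8% of all genes tested, or 35.9% in either direction. The median log2 fold change was 0.41 over the members and 0.02 over all genes tested.

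**Figure D1:**
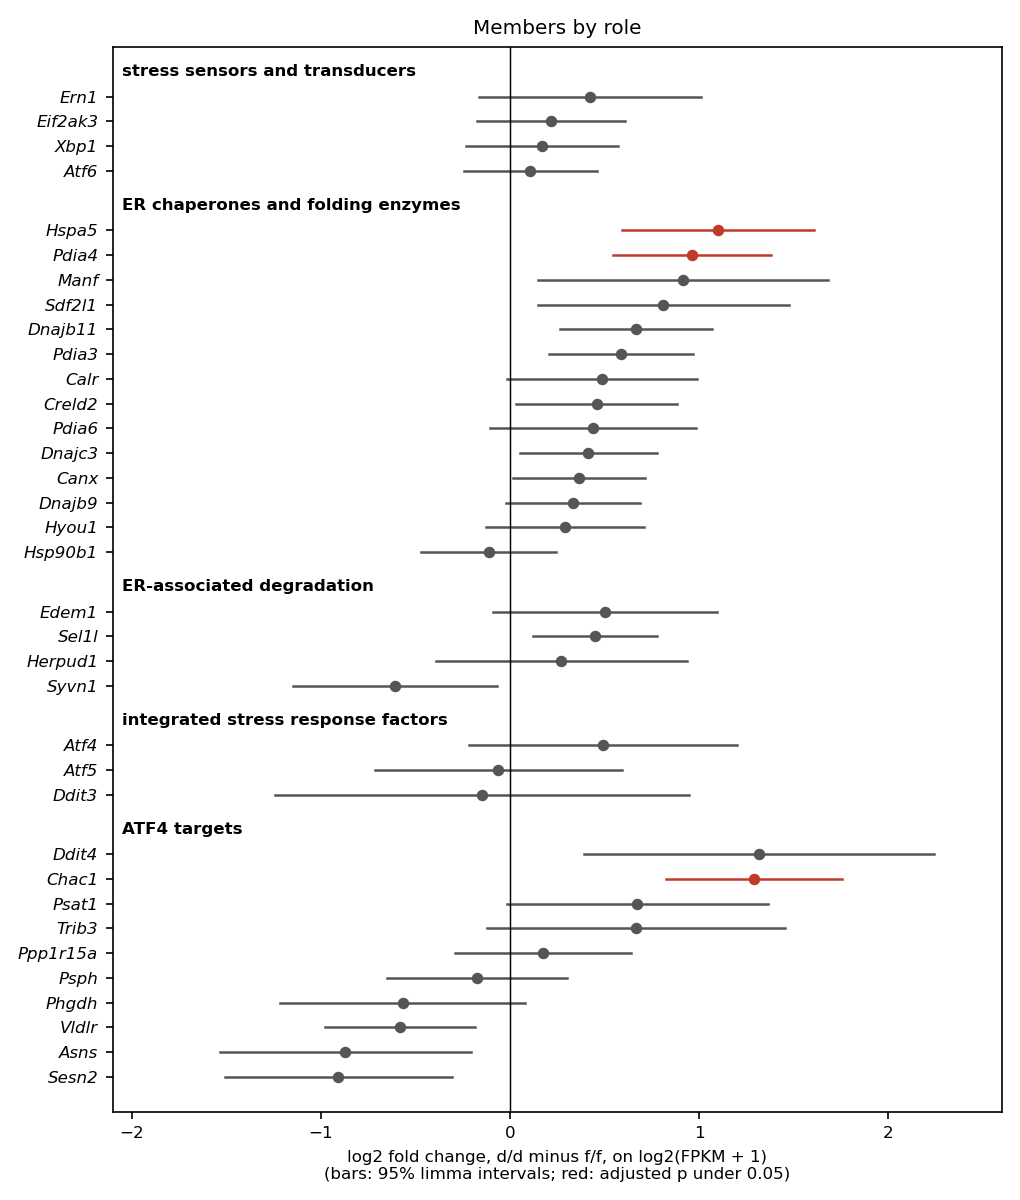
Log2 fold change of each of the 35 members (d/d minus f/f, in log2(FPKM + 1)), with 95% limma intervals, grouped by role and ordered within each role. Hspa5, Pdia4 and Chac1, in red, had an adjusted p under 0.05; 13 of 14 chaperones lie right of 0, while the ATF4 targets spread from -0.91 for Sesn2 to 1.31 for Ddit4.

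All 3 genes were also called without any 1 of the d/d libraries (Hspa5 log2 fold change 0.88 to 1.25, Pdia4 0.80 to 1.06, Chac1 1.17 to 1.41). The filter on low values used all 6 libraries in each of these fits. Chac1 reached 1 FPKM in 3 d/d and 0 f/f libraries, so without 1 d/d library it stayed in only through the library left out. All 3 genes were lost when f/f replicate 1, 2 or 3 was left out, with adjusted p = 0.148, 0.153 and 0.133 for Hspa5, 0.127, 0.145 and 0.117 for Pdia4 and 0.1200, 0.114 and 0.0872 for Chac1 by limma. In those 3 fits 0, 30 and 111 of all genes were called (2292, 2259 and 2464 at an unadjusted p under 0.05), and no member. Without d/d replicate 1, 2 or 3, 1319, 1367 and 1005 of all genes were called, against 947 with all libraries. Calls of other members in the fits without a d/d library, given below, stand beside these larger counts.

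Of the 4 sensors and transducers, 0 were called (limma; 0 at an unadjusted p under 0.05), and all had small positive log2 fold changes, with a median of 0.19. Ern1, which encodes IRE1 alpha, was at 7.07, 8.97 and 12.9 FPKM in d/d and 5.95, 6.203 and 8.29 FPKM in f/f replicates 1, 2 and 3. Its genotypes overlapped, since d/d replicate 1 lay below f/f replicate 3 (log2 fold change 0.42, 95% interval -0.16 to 1.01). Eif2ak3, the PERK gene, was at 7.86, 7.15 and 7.51 FPKM in d/d, against 5.21, 6.43 and 7.49 FPKM in f/f libraries, with f/f replicate 3 inside the d/d range (log2 fold change 0.22, interval -0.18 to 0.61). Atf6 was the flattest of the 4, at 7.89 ± 0.988 FPKM in d/d and 7.23 ± 0.498 FPKM in f/f libraries (SD, n = 3 each). Xbp1, whose spliced mRNA encodes the active factor, was far more abundant than the sensors. It was at 95.8, 119.8 and 141 FPKM in d/d and 98.2, 112 and 104 FPKM in f/f libraries, with d/d replicate 1 below all 3 f/f libraries (log2 fold change 0.17, interval -0.23 to 0.57).

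Of 14 ER chaperones and folding enzymes, 2 rose in d/d uteri, Hspa5 and Pdia4 (14.3%, against 3.49% of all genes tested). A positive log2 fold change was found in 13. The median log2 fold change of the 14 was 0.47, against 0.02 over all genes tested, where 51.9% of genes had a positive value. In 10 of the 14 every d/d library lay above every f/f library, 71.4% of the list against 18.1% of all genes tested. At an unadjusted p under 0.05, 9 of the 14 were higher and 0 lower, against 13.1% and 13.6% of all genes tested. The 14 genes together took 0.395%, 0.435% and 0.556% of the summed FPKM in d/d replicates 1, 2 and 3, and 0.357%, 0.308% and 0.343% in f/f replicates 1, 2 and 3.

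**Figure D2:**
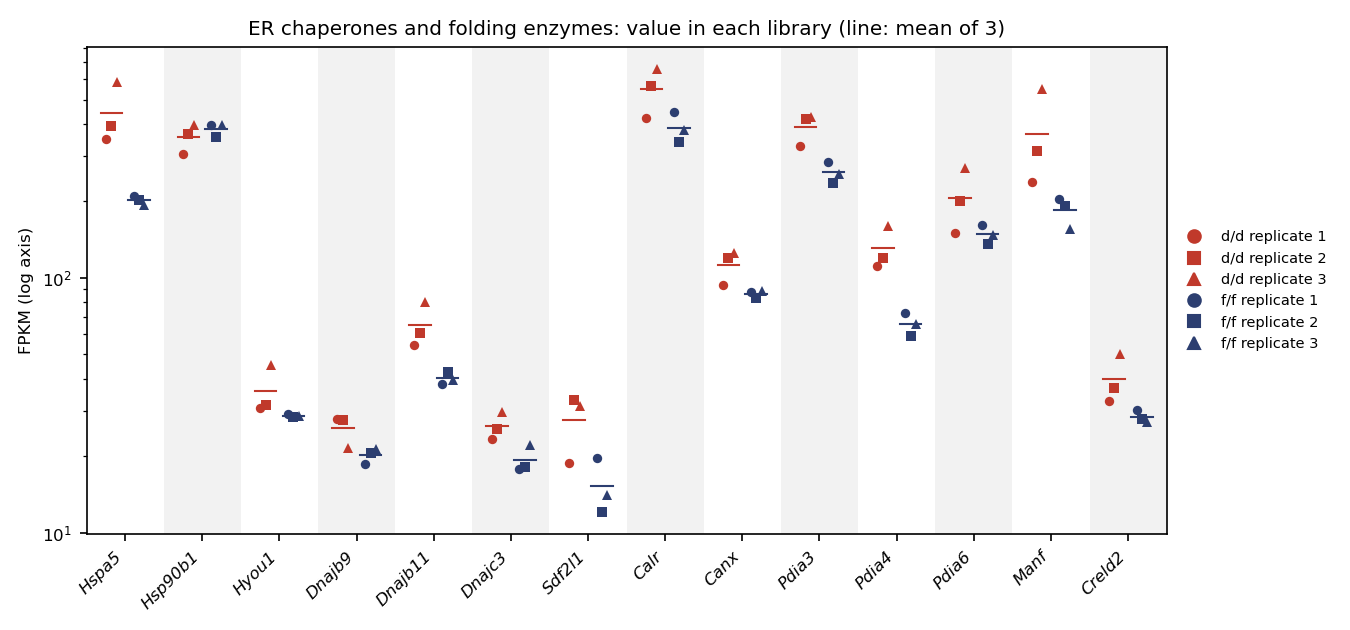
FPKM of the 14 ER chaperone and folding enzyme genes in each library, on a log axis, with d/d in red left of f/f in blue and a line at each mean of 3 libraries. For Hspa5 and Pdia4 the genotypes are well apart, and Hsp90b1 overlaps, with a d/d mean of 357 FPKM and an f/f mean of 384 FPKM.

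Hspa5 encodes BiP, the main ER chaperone of the Hsp70 family, which also holds the sensors inactive. Its values were 349, 395 and 585 FPKM in d/d replicates 1, 2 and 3, against 210.1, 201 and 193 FPKM in the f/f libraries. All d/d libraries lay well above the f/f libraries, which were within a narrow band. The ratio of means was 2.198 and the log2 fold change 1.10 (SE 0.21, 95% interval 0.59 to 1.605, limma adjusted p = 0.0352). Permuting the 6 libraries in every way (exact, two-sided) gave p = 0.1, the smallest value that 3 against 3 allow. The gene lies on chromosome 2 from 34771970 to 34777547 on the plus strand (GRCm38, GENCODE M21).

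Pdia4 encodes a protein disulfide isomerase of the ER, an enzyme that forms and shuffles disulfide bonds. It was at 111, 119.8 and 160.2 FPKM in d/d and 72.6, 59.3 and 65.9 FPKM in f/f libraries, with no overlap. Its mean was 1.98 times as high in d/d (log2 fold change 0.96, SE 0.17, limma adjusted p = 0.0305). The gene lies on chromosome 6 from 47796141 to 47813430 on the minus strand.

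Hsp90b1 encodes GRP94, the Hsp90 chaperone of the ER and, like BiP, a classic target of the unfolded protein response. It went the other way in sign: it was at 306, 368 and 397 FPKM in d/d and 398, 358 and 396 FPKM in f/f libraries. The genotypes overlapped and the interval of the log2 fold change spanned 0 (-0.11, -0.47 to 0.24). Hspa5 thus stood at 1.14, 1.07 and 1.47 times the FPKM of Hsp90b1 in d/d replicates 1, 2 and 3, and at 0.527, 0.561 and 0.488 times in f/f replicates 1, 2 and 3. Hspa5 was the more abundant of the pair in each d/d library and the less abundant in each f/f library. This ratio was chosen after the values were seen and was not tested.

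The promoters of these 3 genes are shown because they hold different numbers of exact matches to the element through which ATF6 and XBP1 raise chaperone genes. The windows run from 250 bases before to 50 after the RefSeq gene start (GRCm38.p6) and are written along the gene's strand; that start can lie outside the GENCODE gene. Capitals mark the ER stress response element (ERSE), which is CCAAT followed after 9 bases by CCACG, searched on both strands. Only exact matches were counted, so a window can hold variants of the element that were missed, with or without a match. Hspa5, which rose, has 1 match at -65; Hsp90b1, which was not called, has 2, at -212 and -107; Pdia4, which rose, has 0.
Hspa5 promoter, chr2:34771840-34772139, plus strand: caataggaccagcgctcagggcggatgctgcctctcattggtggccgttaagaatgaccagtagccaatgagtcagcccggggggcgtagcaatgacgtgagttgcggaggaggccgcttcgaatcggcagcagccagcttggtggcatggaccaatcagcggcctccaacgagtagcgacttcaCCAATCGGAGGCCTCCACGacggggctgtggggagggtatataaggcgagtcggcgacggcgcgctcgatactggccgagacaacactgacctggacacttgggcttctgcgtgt
Hsp90b1 promoter, chr10:86705395-86705694, minus strand: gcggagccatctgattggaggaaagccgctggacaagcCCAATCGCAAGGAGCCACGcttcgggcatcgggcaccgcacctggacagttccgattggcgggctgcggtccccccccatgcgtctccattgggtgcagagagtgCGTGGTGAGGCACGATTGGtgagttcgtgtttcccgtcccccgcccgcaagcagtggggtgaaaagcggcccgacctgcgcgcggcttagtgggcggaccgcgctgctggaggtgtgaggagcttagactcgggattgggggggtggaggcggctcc
Pdia4 promoter, chr6:47813463-47813762, minus strand: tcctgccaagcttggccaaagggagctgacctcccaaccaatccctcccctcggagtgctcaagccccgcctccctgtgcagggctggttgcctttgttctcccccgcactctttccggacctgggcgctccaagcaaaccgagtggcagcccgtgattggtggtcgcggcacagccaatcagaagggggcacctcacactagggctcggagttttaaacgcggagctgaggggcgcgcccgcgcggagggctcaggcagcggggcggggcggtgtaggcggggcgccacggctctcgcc
Positions count from the gene start, with bases before it negative. Among the 12 chaperone genes with a window, 7 held an exact ERSE match (58.3%), against 0.137% of the 27025 genes with a window. Over the genes tested that had a window, the share was 0.165%. The element is known for raising chaperone genes, so its share among them describes sequence and is no result of these libraries. The 7 were Hspa5, Hsp90b1, Calr, Canx, Creld2, Dnajc3 and Pdia6. Dnajb11 held the related ERSE-II, which is ATTGG followed after 1 base by CCACG, as 0.0444% of all genes did. The 8 chaperones with either match had a median log2 fold change of 0.45 and the 4 with a window and no match, Dnajb9, Sdf2l1, Pdia3 and Pdia4, one of 0.70. None of the 12 held TGACGTGG, an element that ATF6 and XBP1 can bind, which 0.714% of all genes held.

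The other 11 chaperones with positive log2 fold changes did not pass the test. Dnajb11, a J-domain partner of BiP, was at 54.6, 60.7 and 80.5 FPKM in d/d and 38.4, 42.7 and 39.8 FPKM in f/f libraries (log2 fold change 0.66, limma adjusted p = 0.0666). Pdia3, a disulfide isomerase that works with calnexin and calreticulin, was at 329, 419 and 426 FPKM in d/d and 284, 236 and 256 FPKM in f/f libraries (log2 fold change 0.59, adjusted p = 0.0755). In both genes the genotypes did not overlap. Neither was called when an f/f library was left out. Without d/d replicate 1 each was called (limma adjusted p = 0.0438 and 0.0368), in a fit that called 1319 of all genes, against 947 with all libraries. Canx, which encodes the membrane-bound lectin chaperone calnexin, was likewise called without that library (adjusted p = 0.0489) and with all libraries was at 93.3, 119.6 and 125 FPKM in d/d and 88.3, 83.1 and 88.6 FPKM in f/f libraries. Sdf2l1, a stress-inducible partner of Dnajb11, was at 18.7, 33.1 and 31.4 FPKM in d/d and 19.6, 12.02 and 14.1 FPKM in f/f libraries. Here d/d replicate 1 lay below f/f replicate 1, and the adjusted p was 0.0475 without d/d replicate 1 (limma), against 0.123 with it.

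Manf, which encodes a secreted ER stress protein, was spread widely among the d/d libraries, at 237, 315 and 550.5 FPKM, against 204, 191 and 156 FPKM in f/f libraries. All 3 d/d libraries were above the f/f libraries, with d/d replicate 3 far above the other two (log2 fold change 0.91, interval 0.15 to 1.68, limma adjusted p = 0.1300). Manf shares 14 exonic bases with Rbm15b on the same strand and 146 with Dcaf1 on the other. Calr, the calreticulin gene and the most abundant chaperone of the list by FPKM, was at 425, 567 and 659 FPKM in d/d and 445, 340.2 and 379.8 FPKM in f/f libraries, with d/d replicate 1 inside the f/f range (log2 fold change 0.49). Calr has an annotated processed pseudogene, Calr-ps, so its value is uncertain to that extent. Pdia6, another disulfide isomerase gene, was at 149.5, 199.7 and 269 FPKM in d/d and 161, 136 and 147 FPKM in f/f libraries, and again d/d replicate 1 was inside the f/f range.

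Creld2, Dnajc3, Hyou1 and Dnajb9 had log2 fold changes of 0.46, 0.41, 0.29 and 0.33, and in each the d/d libraries lay above the f/f libraries. Creld2, the gene of an ER protein that ER stress induces, was at 32.9, 36.9 and 50.2 FPKM in d/d and 30.3, 27.9 and 27.2 FPKM in f/f libraries. Hyou1, the gene of an Hsp70-like nucleotide exchange factor for BiP, was at 30.8, 31.6 and 45.6 FPKM in d/d, against 29.3, 28.3 and 28.8 FPKM in f/f libraries, so that d/d replicates 1 and 2 were only just above f/f. Dnajc3, which encodes a J-domain protein that also restrains eIF2 kinases, was at 23.2, 25.5 and 29.7 FPKM in d/d and 17.8, 18.1 and 22.1 FPKM in f/f libraries. Dnajb9, whose product ERdj4 returns BiP to IRE1, was at 27.95, 27.6 and 21.4 FPKM in d/d and 18.5, 20.5 and 21.2 FPKM in f/f libraries. Its d/d replicate 3 was only just above f/f, and Dnajb9 was the 1 chaperone of the 14 that was lowest there among the d/d libraries.

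The d/d libraries held a common order over most chaperones. Of the 14 genes, 12 were highest in d/d replicate 3 among the d/d libraries, and 13 were lowest in d/d replicate 1. The median difference of the list from the f/f mean (log2) was 0.28, 0.51 and 0.78 in d/d replicates 1, 2 and 3, and 0.074, -0.072 and -0.0071 in f/f replicates 1, 2 and 3. The marker lists had other medians in d/d replicates 1, 2 and 3. They were 1.11, 0.021 and 1.89 for luminal and shared epithelium and 1.29, 3.47 and 0.14 for leukocytes and macrophages. Smooth muscle markers had -1.94, -0.94 and 0.26, in the same order as the chaperones, and gland markers had -0.13, -1.15 and -3.13, in the opposite order. Endothelial markers had -0.74, -0.55 and -1.25. Plasma cells had 8 of their 9 markers in the tables, with sums of 25.9, 234 and 11.6 FPKM in d/d replicates 1, 2 and 3 and 26.4, 23.6 and 85.4 FPKM in f/f replicates 1, 2 and 3. Of the 4 plasma cell markers tested, 1 was higher and 0 lower (25% and 0%, against 3.49% and 3.81% of all genes tested). Tnfrsf17, a defining plasma cell gene named after its values were seen, was listed at 0 in 2 d/d and 2 f/f libraries. The part of any of these cell types in the chaperone values was not tested.

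**Figure D3:**
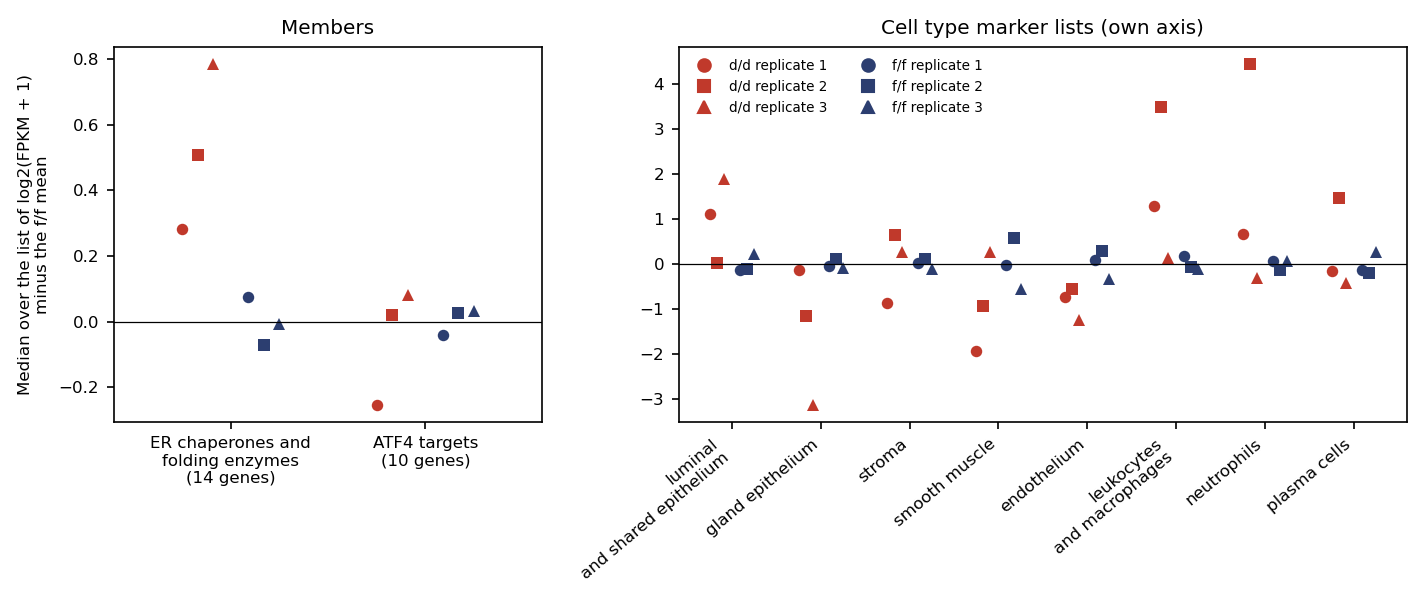
Median over each list of the difference between a library and the f/f mean, in log2(FPKM + 1), for the chaperones and ATF4 targets on the left and 8 cell type marker lists on the right, which has its own axis. The chaperone medians of the 3 d/d libraries are 0.28, 0.51 and 0.78, all above the f/f libraries, while those of the ATF4 targets overlap them, and leukocyte and neutrophil markers stand out in d/d replicate 2.

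Of the 4 genes of ER-associated degradation, 0 passed with all libraries (limma; at an unadjusted p under 0.05, 1 was higher and 1 lower), and the signs were mixed. Sel1l and Syvn1 encode the adaptor and the ubiquitin ligase HRD1 of a single complex, and their values went opposite ways. Sel1l was at 34.7, 29.4 and 29.9 FPKM in d/d and 20.6, 22.1 and 25.5 FPKM in f/f libraries, with no overlap (log2 fold change 0.45, interval 0.12 to 0.78, adjusted p = 0.0973). Syvn1 was at 41.7, 24.2 and 25.3 FPKM in d/d and 47.8, 46.6 and 42.01 FPKM in f/f libraries, all d/d libraries below f/f, although d/d replicate 1 only just. Its log2 fold change was -0.61 (interval -1.15 to -0.070, adjusted p = 0.147), and -0.85 (adjusted p = 0.0214) without d/d replicate 1. The Syvn1 promoter window holds an ERSE match at -44.

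Edem1, which encodes a lectin-like protein that directs misfolded glycoproteins to degradation, was at 22.5, 43.7 and 31.8 FPKM in d/d and 24.7, 20.6 and 20.9 FPKM in f/f libraries, with d/d replicate 1 inside the f/f range. Herpud1, a stress-inducible component of the degradation complex, was at 32.6, 56.5 and 27.7 FPKM in d/d and 28.9, 27.9 and 35.5 FPKM in f/f libraries. Only d/d replicate 2, the library highest in leukocyte markers, lay above the f/f range in Herpud1, and the part of leukocytes in it was not tested. Without that library the log2 fold change of Herpud1 was -0.027, against 0.27 with all libraries. Its promoter window holds both an ERSE-II and TGATGNAA, the core of the element that ATF4 binds with C/EBP partners, here called the C/EBP-ATF element.

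Of the 3 transcription factor genes of the integrated stress response, 0 were called (limma; 0 at an unadjusted p under 0.05), and all were spread more widely in d/d than in f/f libraries. Atf4, whose control is largely translational, was at 69.3, 90.1 and 152 FPKM in d/d and 80.9, 65.1 and 64.2 FPKM in f/f libraries. The genotypes overlapped, because d/d replicate 1 lay inside the f/f range while d/d replicate 3 was high (log2 fold change 0.49, interval -0.22 to 1.201). Atf5, a related factor that responds to ATF4, was at 21.6, 23.9 and 44.4 FPKM in d/d, on both sides of the narrow f/f band of 30.4, 30.1 and 28.7 FPKM. Ddit3, the gene of the pro-apoptotic factor CHOP, was at 23.3, 33.5 and 8.61 FPKM in d/d and 22.1, 22.5 and 19.2 FPKM in f/f libraries. Its d/d values also lay on both sides of f/f, and d/d replicate 3, with the highest Atf4, had the lowest Ddit3. Ddit3 shares 68 exonic bases with Mars1 on the other strand.

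Of the 10 ATF4 targets, 1 (Chac1) rose and 0 fell (10% and 0%, against 3.49% and 3.81% of all genes tested). A positive log2 fold change was found in 5 and a negative one in 5, close to the 51.9% positive over all genes tested, and 2 were higher and 3 lower without overlap between the genotypes (20% and 30%, against 18.1% and 17.8% of all genes tested). At an unadjusted p under 0.05, 2 were higher and 3 lower, against 13.1% and 13.6% of all genes tested. The median log2 fold change was -0.00081, against 0.02 over all genes tested.

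**Figure D4:**
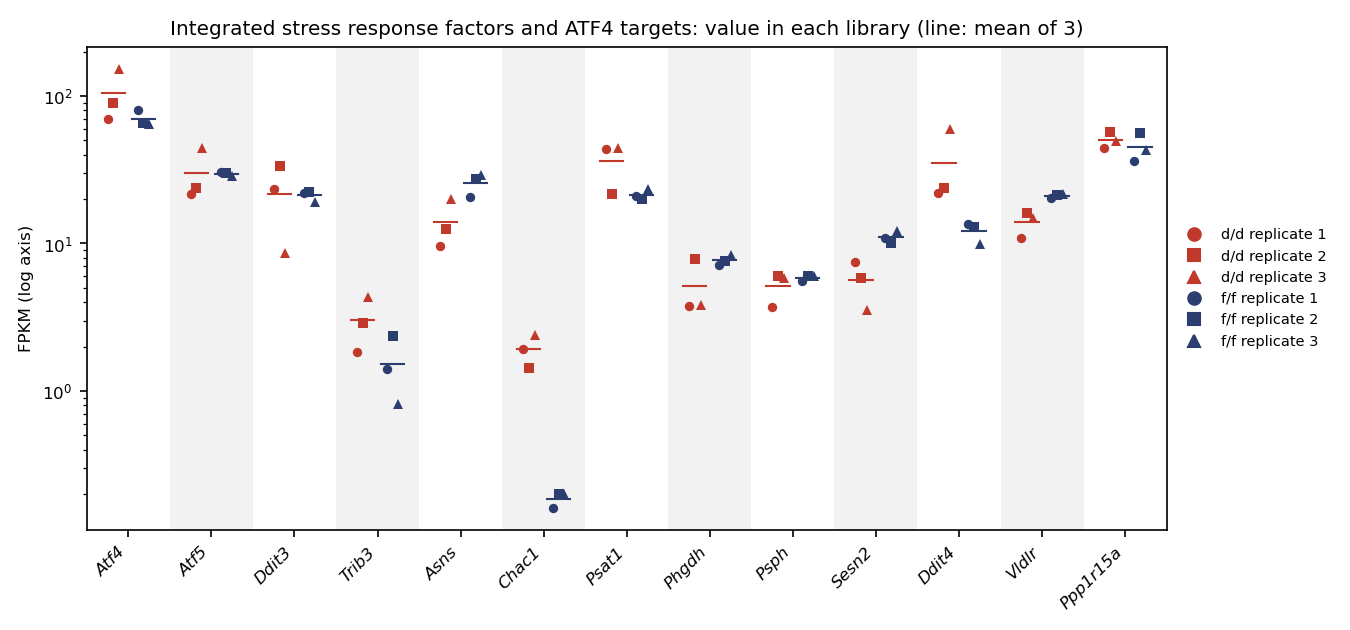
FPKM of the 3 integrated stress response factor genes and the 10 ATF4 targets in each library, on a log axis, with d/d in red left of f/f in blue and a line at each mean of 3 libraries. Chac1 and Ddit4 are above f/f in all 3 d/d libraries, and Asns, Sesn2 and Vldlr are below.

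Chac1 encodes an enzyme that breaks down glutathione and is a marker of the PERK and ATF4 branch. It was at 1.93, 1.44 and 2.405 FPKM in d/d and 0.161, 0.199 and 0.1996 FPKM in f/f libraries. The f/f values were all under 1 FPKM, so Chac1 entered the test only through the d/d libraries, where it is high. Its mean was 10.3 times as high in d/d, and by limma the log2 fold change, on a scale that understates low genes, was 1.29 (SE 0.19, adjusted p = 0.0224). Chac1 lies on chromosome 2 from 119351229 to 119354381 on the plus strand.

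Asns, the asparagine synthetase gene and a textbook ATF4 target, had a negative log2 fold change. It was at 9.68, 12.5 and 19.98 FPKM in d/d and 20.8, 27.4 and 28.99 FPKM in f/f libraries, with every d/d library below every f/f library (log2 fold change -0.87, interval -1.54 to -0.21, limma adjusted p = 0.107; 0.0385 without d/d replicate 3). Relative to Atf4 mRNA, Asns FPKM was 0.1396, 0.139 and 0.131 in d/d replicates 1, 2 and 3, and 0.257, 0.421 and 0.452 in f/f replicates 1, 2 and 3. The d/d ratios were close together and all below f/f. This ratio too was chosen after the values were seen and was not tested.

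The promoters of Chac1 and Asns are shown because both hold the C/EBP-ATF core TGATGNAA, in capitals here on either strand, while the genes lay on opposite sides of f/f. The match is at -193 in Chac1, on the minus strand relative to the gene, and at -23 in Asns.
Chac1 promoter, chr2:119350992-119351291, plus strand: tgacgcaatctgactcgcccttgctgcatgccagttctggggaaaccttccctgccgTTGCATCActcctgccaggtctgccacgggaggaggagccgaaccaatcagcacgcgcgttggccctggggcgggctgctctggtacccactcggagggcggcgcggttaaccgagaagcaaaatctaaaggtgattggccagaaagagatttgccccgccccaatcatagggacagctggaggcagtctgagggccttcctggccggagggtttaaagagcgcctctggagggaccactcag
Asns promoter, chr6:7693160-7693459, minus strand: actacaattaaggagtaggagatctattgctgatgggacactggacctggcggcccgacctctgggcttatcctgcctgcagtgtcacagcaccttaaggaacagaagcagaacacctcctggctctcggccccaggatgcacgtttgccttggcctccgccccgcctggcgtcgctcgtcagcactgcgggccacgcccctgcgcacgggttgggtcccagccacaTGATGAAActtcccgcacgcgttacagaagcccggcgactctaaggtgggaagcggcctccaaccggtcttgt
In all, 4 of the 10 ATF4 targets with a window held this core, Asns, Chac1, Trib3 and Vldlr, against 4.51% of all genes with a window and 2.72% of the genes tested that had one. Of these 4, Chac1 and Trib3 had positive and Asns and Vldlr negative log2 fold changes. None of the 10 held an exact match to ERSE or ERSE-II.

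Among the stress-effector targets, Ddit4 and Sesn2, which both encode inhibitors of the growth kinase complex mTORC1, lay on opposite sides of f/f. Ddit4 was at 22.1, 23.8 and 59.3 FPKM in d/d and 13.6, 13.01 and 9.98 FPKM in f/f libraries, with d/d replicate 3 well above the other two (log2 fold change 1.31, interval 0.39 to 2.24, limma adjusted p = 0.0901; 0.0444 without d/d replicate 3). Sesn2 was at 7.49, 5.82 and 3.55 FPKM in d/d and 10.97, 10.1 and 12.1 FPKM in f/f libraries, lowest in d/d replicate 3 (log2 fold change -0.91, interval -1.51 to -0.31, adjusted p = 0.0782; 0.0424 without d/d replicate 1). Trib3, a pseudokinase gene that restrains ATF4, was low throughout, at 1.85, 2.87 and 4.34 FPKM in d/d and 1.41, 2.37 and 0.813 FPKM in f/f libraries, with overlap. Ppp1r15a, whose product GADD34 directs the phosphatase that reverses eIF2 phosphorylation, was at 44.2, 57.00 and 49.7 FPKM in d/d and 36.1, 56.1 and 42.8 FPKM in f/f libraries, and its interval spanned 0 (-0.29 to 0.64). Vldlr, a lipoprotein receptor gene that ATF4 can raise, was at 10.9, 15.97 and 14.9 FPKM in d/d and 20.4, 21.3 and 21.7 FPKM in f/f libraries, with no overlap (log2 fold change -0.58, interval -0.98 to -0.18, adjusted p = 0.0846).

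The genes of the 3 enzymes of serine synthesis, which act in sequence, had different patterns. Phgdh, the gene of the first enzyme, was at 3.78, 7.79 and 3.81 FPKM in d/d and 7.16, 7.65 and 8.34 FPKM in f/f libraries. It was low in d/d replicates 1 and 3, and in d/d replicate 2 it was inside the f/f range. Psat1, the gene of the second enzyme, was at 43.5, 21.6 and 44.2 FPKM in d/d and 21.02, 20.03 and 23.3 FPKM in f/f libraries, and here d/d replicates 1 and 3 were high while d/d replicate 2 was again inside the f/f range. Without d/d replicate 2 both were called, Psat1 higher (log2 fold change 1.00, limma adjusted p = 0.0166) and Phgdh lower (-0.86, adjusted p = 0.0267), and with all libraries neither was (adjusted p = 0.197 and 0.236). The fit without d/d replicate 2 called 1367 of all genes, against 947 with all libraries. The libraries with high Psat1 and low Phgdh were those highest in epithelial markers, and the part of epithelial content was not tested. Psph, the gene of the last enzyme, was at 3.704, 5.98 and 5.86 FPKM in d/d and 5.56, 6.06 and 5.995 FPKM in f/f libraries, with only d/d replicate 1 outside the f/f range. Phgdh has an annotated processed pseudogene, Phgdh-ps1, and Psph shares 452 exonic bases with Cct6a on the other strand, so both values are uncertain to that extent.

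Set side by side, the chaperone median lay above the ATF4 target median in all 3 d/d libraries, by 0.53, 0.49 and 0.70 on the log2 scale in d/d replicates 1, 2 and 3, and by 0.11, -0.10 and -0.039 in f/f replicates 1, 2 and 3. The d/d differences were all above the f/f differences. The ATF4 target medians themselves were -0.25, 0.019 and 0.081 in d/d replicates 1, 2 and 3, around the f/f values. The groups were set by known roles, but the members were chosen with earlier results of these data known. The difference between the groups was not tested. The spread among genes also differed: log2 fold changes ran from -0.11 to 1.10 for the 14 chaperones and from -0.91 to 1.31 for the 10 targets.

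Other genes of ER folding, outside the 35, had a median log2 fold change of 0.11. Of 26 tested, 1 was higher (3.85%), 0 lower and 15 positive (57.7%), against 3.49%, 3.81% and 51.9% of all genes tested. Every d/d library lay above every f/f library in 19.2% and below in 7.69%, against 18.1% and 17.8% of all genes tested. The 1 that rose was Sil1, whose product is a nucleotide exchange factor for BiP, at 28.3, 33.9 and 40.2 FPKM in d/d and 18.1, 19.7 and 19.3 FPKM in f/f libraries (log2 fold change 0.80, limma adjusted p = 0.0359). Ero1l, which encodes an oxidase that recharges disulfide isomerases, had a log2 fold change of 0.84, Mlec, a lectin gene of glycoprotein quality control, one of -0.63, and Uggt2, a folding-sensor glucosyltransferase gene, one of -0.74, none called. Of 21 other genes of degradation and translocation, 0 were called (limma; 2 higher and 0 lower at an unadjusted p under 0.05), with a median of 0.12. Among the lowest p-values there were those of Derl2, Edem3 and Sec61a1, with log2 fold changes of 0.53, 0.40 and 0.35. In each of these 3, named for their p-values, every d/d library was above every f/f library. That held for 4 of the 21 (19%), near the 18.1% of all genes tested.

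Of 28 other ATF4 targets and genes of amino acid supply tested, 3 rose and 1 fell, with a median log2 fold change of -0.058. These are 10.7% and 3.57%, against 3.49% and 3.81% of all genes tested. Stc2, a secreted glycoprotein gene, was at 11.1, 13.8 and 26.5 FPKM in d/d and 3.36, 4.67 and 3.21 FPKM in f/f libraries (log2 fold change 1.86, limma adjusted p = 0.0289). Slc7a11, the cystine transporter gene, was at 8.85, 8.09 and 4.87 FPKM in d/d and 1.26, 1.003 and 1.005 FPKM in f/f libraries (1.95, adjusted p = 0.0135). Gdf15, a stress cytokine gene, was at 6.69, 6.39 and 13.1 FPKM in d/d and 0.147, 0.3902 and 0.293 FPKM in f/f libraries (2.87, adjusted p = 0.00853), and like Chac1 it entered the test only through the d/d libraries. In these 3 genes, which rose, every d/d library was far above f/f. Cth, which makes cysteine from cystathionine, was at 3.53, 1.79 and 0.572 FPKM in d/d and 8.09, 8.91 and 13.1 FPKM in f/f libraries and fell (-1.999, adjusted p = 0.0396). The share called lower was near that of all genes tested, while the share called higher counts Gdf15. In 21.4% of the 28 every d/d library lay above every f/f library and in 14.3% below, against 18.1% and 17.8% of all genes tested.

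Among 16 other sensors and factors tested, 2 rose and 0 fell (12.5% and 0%, against 3.49% and 3.81% of all genes tested). Every d/d library lay above every f/f library in 12.5% and below in 6.25%, against 18.1% and 17.8% of all genes tested. Nfe2l2, the NRF2 gene of the oxidative stress response, was at 99.8, 121 and 122 FPKM in d/d and 67.7, 67.3 and 72.2 FPKM in f/f libraries (log2 fold change 0.71, limma adjusted p = 0.0289). Nupr1, a stress-induced chromatin protein gene, was at 64.5, 130.4 and 46.6 FPKM in d/d and 20.1, 15.4 and 19.9 FPKM in f/f libraries (1.94, adjusted p = 0.0351), with the highest value in d/d replicate 2, which was also highest in leukocyte markers; the part of leukocytes in it was not tested. Traf2 and Eif2ak4, which encode an IRE1 adaptor and the eIF2 kinase GCN2, had log2 fold changes of 0.35 and -0.48 and were not called.

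Chaperones of other compartments had medians near that of all genes tested. Of 15 cytosolic heat shock genes, 0 rose and 1 fell (6.67%, against 3.81% of all genes tested called lower), with a median of 0.067. The 1 that fell was Hspb8, a small heat shock protein gene, at 44.4, 60.2 and 48.3 FPKM in d/d and 93.4, 92.9 and 83.8 FPKM in f/f libraries (log2 fold change -0.82, limma adjusted p = 0.03003). Hsf2, Hsp90aa1 and Dnajb1 had log2 fold changes of -0.68, 0.39 and 0.44 and were not called. Of 11 mitochondrial chaperone and protease genes, 0 were called (limma; 1 higher and 0 lower at an unadjusted p under 0.05), with a median of -0.056, and the lowest p was that of Grpel1 (log2 fold change 0.56). No test set these lists against the 14 ER chaperones.

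**Figure D5:**
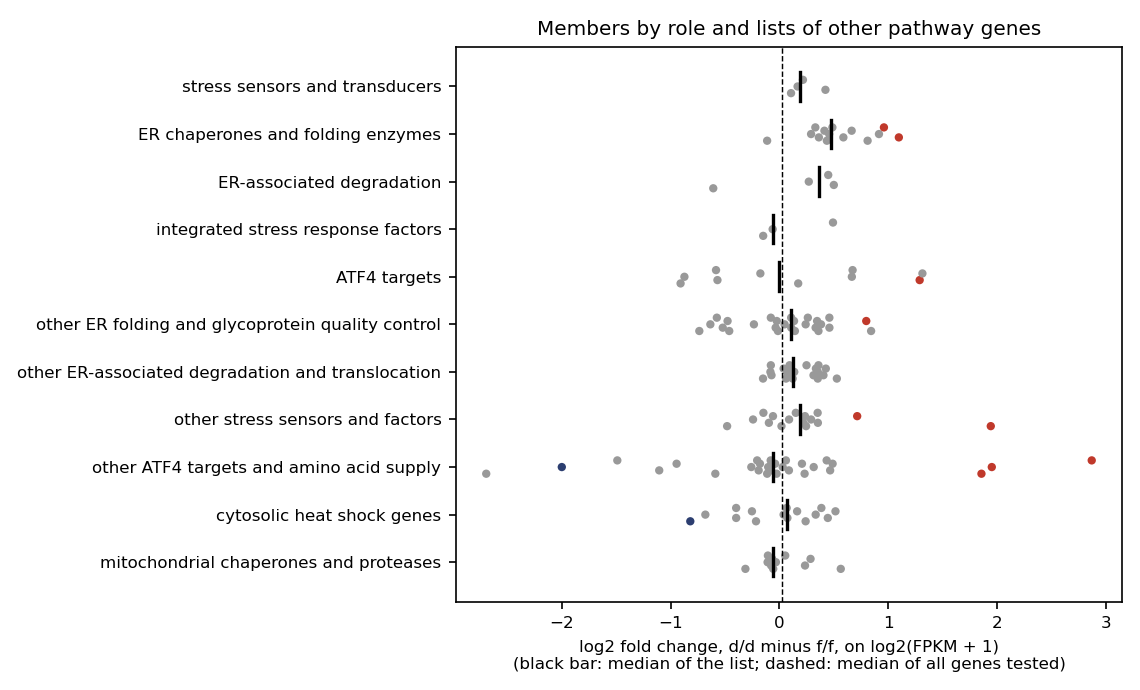
Log2 fold change (d/d minus f/f, in log2(FPKM + 1)) of each tested gene in the 5 roles and in 6 lists of other pathway genes, with a black bar at each list's median and a dashed line at the median of all genes tested; red genes rose and blue genes fell at an adjusted p under 0.05. The ER chaperone median of 0.47 is the highest of the 11 medians, and the 2 ATF4 target lists are spread widely around 0.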

How the data were processed

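The authors deposited 1 table per library with 1 value per gene, taken here as FPKM; the headers give no unit, and the values are decimals whose totals differ between libraries. HISAT2 2.2.1, Cufflinks 2.2.1 and the builds mm9 and mm10 are named, without a role, per the submitters' processing notes; annotation and strandedness are not stated there. RNA was extracted with TRIzol and libraries made with a TruSeq kit, per the labels. Where rows shared a symbol, only the most abundant stayed in (36 rows removed). Genes with at least 1 FPKM in at least 3 libraries (12979) were compared with limma 3.58.1 (R 4.3.3) on log2(FPKM + 1) values (genotype, intensity trend, two-sided, Benjamini-Hochberg); fold changes are d/d minus f/f and understate low genes. Positions and exon overlaps are from GENCODE M21 (GRCm38), which held 99.46% of the gene IDs; promoter windows are from RefSeq and matched 32 of 35 members. On simulated data with each genotype's own spread, 46.9%, 82.8% and 91.8% of genes changed by 1, 2 and 3 on the log2 scale were recovered, and 19.1% of calls were false. In each of 10 draws 200 genes with a mean log2 value above 2 were changed. The recovery thus does not cover low genes such as Chac1 and Trib3, and the false share holds for 200 changed genes. The members and lists were chosen with earlier results of these data known. All 35 members could be named, and of each other list up to 4 genes in order of unadjusted p, except that 1 gene is not reported here. The alternatives were another pseudocount, filter, scaling, weighting, trend or handling of repeated symbols, a replicate block, and leaving out each library. A planned description of protein ends was not made, since protein sequences were not used here.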

Additional observations from a re-analysis of the deposited data

How the results depend on the processing

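Directions of the members tested held under all 10 settings that kept every library, and the higher calls of Hspa5, Pdia4 and Chac1 in all but 3 of these settings. Without a filter on low values Hspa5 was lost (limma adjusted p = 0.0539), and at a minimum of 5 FPKM Chac1 was not tested and the ATF4 target median was -0.37, since Chac1 and Trib3 dropped out. Scaling each library to the same sum gave 1 lower member, Vldlr. The chaperone median ranged from 0.37 to 0.48 under these settings. With the replicate number as a block, 100 genes and 0 members were called higher or lower, against 947 genes with no block. At an unadjusted p under 0.05 the block fit gave 3056 genes. Deviations of same-numbered libraries correlated at -0.020, 0.020 and -0.021, and those of differently numbered libraries at -0.141 to 0.125. With 3 libraries per genotype, this check cannot tell whether same-numbered libraries shared a batch. With 1 library left out, 0 to 1367 genes, 0 to 7 higher members and 0 to 2 lower members were called, the chaperone median was 0.40 to 0.65 and the ATF4 target median -0.097 to 0.14. The 0 calls of members came without any 1 f/f library; the fit takes 1 spread per gene for both genotypes, and with a weight per genotype 840 genes and the same 3 members were called. The sign turned, with no call, for Atf5 (0.13 without d/d replicate 1 and 0.061 without d/d replicate 2; range -0.37 to 0.13), Psph (0.011 without d/d replicate 1; range -0.27 to 0.011), Herpud1 (-0.027 without d/d replicate 2; range -0.027 to 0.48) and Ddit3 (0.38 without d/d replicate 3; range -0.54 to 0.38). The unknown depth limits most the values of Chac1 and Trib3, and no counting interval can be given.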
